A study of Homo sapiens with 6 samples.

Results

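The transcripts described here are those of 10 genes used as markers of tumour and tissue stem cells: CD44, CD24, PROM1, EPCAM, THY1, SOX2, SOX9, BMI1, LGR5 and PROCR. They were chosen by symbol, and every Affymetrix probe set (a group of short probes that together measure 1 transcript region) annotated to exactly 1 of these symbols was taken, which gave 33 of the 54613 probe sets tested. The 33 covered 9 of the 10 genes, with 13 probe sets for CD44, 6 for CD24, 4 for SOX2, 3 for THY1, 2 each for SOX9 and LGR5, and 1 each for PROM1, EPCAM and PROCR. BMI1, a Polycomb protein that keeps stem cells dividing by silencing genes, had no probe set annotated to its symbol alone and was not analysed here. The RNA came from SUM149, a human inflammatory breast cancer cell line, transfected with an siRNA pool at 200 nmol/L. Cells given a non-targeting siGENOME pool (siControl, 3 arrays) were compared with cells given an ON-TARGET Plus pool against TIG1 (siTIG1, 3 arrays), the gene now named RARRES1. No genetic change was made to either group, and the target of the pool and its product line cannot be told apart. The labels do not say whether the replicates were grown and transfected separately, and the spread on which each p-value rests may therefore be technical.

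CD44 is the main cell-surface receptor for the matrix sugar hyaluronan, and its pre-mRNA is spliced into a standard form and into many variant forms. CD24 is a small, heavily glycosylated protein held in the membrane by a lipid anchor. In breast cancer, cells with high CD44 and low or absent CD24 on their surface have been used to enrich for tumour-initiating cells, and the same combination is common in basal-like cell lines. EPCAM marks epithelial cells, while PROM1, THY1, LGR5, PROCR, SOX2 and SOX9 mark stem or progenitor cells of various tissues.

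CD24 rose on the arrays of TIG1-targeted cells, and CD44 fell on 1 of its probe sets. All 6 CD24 probe sets were higher, by 2.46-fold to 4.15-fold, and all passed the test. The RNA was of whole cultures, in which a changed share of cells with a transcript and a changed amount per cell cannot be told apart. For CD44, 1 of 13 probe sets passed, 1.79-fold lower, and 11 of the 13 had a negative difference. None of the 14 probe sets of PROM1, EPCAM, THY1, SOX2, SOX9, LGR5 and PROCR passed. Over the 33 probe sets, 6 rose, 1 fell and 26 did not pass at a limma adjusted p under 0.05, where 5.01% of all probe sets passed (2.14% as higher and 2.87% as lower). These counts depended on single arrays: 9 were called as higher and 8 as lower without siControl replicate 3 (18.9% of all probe sets), 4 and 0 without siControl replicate 1 or 2, and 1 and 0 without any 1 of the siTIG1 arrays. All 3 siTIG1 arrays lay above all 3 siControl arrays on 8 of the 33 probe sets and below them on 5, and 27.8% of all probe sets had groups that did not overlap in this way (14.8% with siTIG1 above and 13% below). Those above were the 6 of CD24, CD44 234418_x_at and THY1 208850_s_at, and those below were 4 of CD44 and SOX2 213722_at.

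For orientation, the DNA just upstream of the transcription starts of the called genes is shown for these 250-base windows, taken from RefSeq on GRCh38.p14. The CD44 window is chr11:35138921-35139170 on the plus strand and ends at the gene's start. The CD24 window is chr6:106975628-106975877 on the minus strand and lies before the most upstream of 3 starts that the RefSeq table lists for CD24. Capitals mark GC boxes (GGGCGG on either strand), the core to which SP-family factors bind.
CD44: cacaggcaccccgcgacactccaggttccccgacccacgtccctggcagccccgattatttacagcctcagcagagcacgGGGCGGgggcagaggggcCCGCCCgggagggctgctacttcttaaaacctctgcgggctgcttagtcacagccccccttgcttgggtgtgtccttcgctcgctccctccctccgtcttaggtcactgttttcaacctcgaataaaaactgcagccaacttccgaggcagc
CD24: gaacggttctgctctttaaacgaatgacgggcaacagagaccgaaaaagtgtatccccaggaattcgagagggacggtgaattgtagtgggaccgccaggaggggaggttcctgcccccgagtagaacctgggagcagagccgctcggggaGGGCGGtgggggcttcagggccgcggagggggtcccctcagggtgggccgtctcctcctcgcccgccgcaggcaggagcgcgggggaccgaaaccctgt
The CD44 window held 2 GC boxes and the CD24 window 1, and 42.6% of 35116 promoter windows of this length held at least 1. Neither window held the AP-1 letters TGANTCA on either strand, which 6.57% of all windows held. The EGR letters GCGNGGGCG were found in 8.42% of all windows and in neither of these. The letters TATAAA of a TATA box were found in 10.7% of all windows and again in neither. An EGR match can overlap a GC box. These matches describe letters in the windows only, and the arrays measured no binding there.

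One control array, siControl replicate 3, lay apart from the rest. Across probe sets it correlated at 0.985 with both other controls, while those correlated with each other at 0.998, and the siTIG1 arrays correlated with siControl replicates 1 and 2 at 0.992 to 0.993. Values of each member are therefore given with and without it. TIG1 itself did not pass on any of its 3 probe sets: on 206391_at the arrays read 11.04, 10.92 and 12.58 for siControl and 10.72, 10.03 and 9.96 for siTIG1, so that siTIG1 was on average 1.28 lower (log2 difference -1.28, SE 0.46, limma adjusted p = 0.20). The highest control value was that of replicate 3, and without it the difference was -0.75 (limma adjusted p = 0.024). In that fit 206392_s_at was at -0.68 and passed (limma adjusted p = 0.043), and 221872_at was at -0.46 and did not (limma adjusted p = 0.16). On 221872_at siTIG1 replicate 1, at 12.69, lay above siControl replicates 1 and 2, at 12.65 and 12.61. All 7 measured genes that mark the epithelial and basal character of the line, such as KRT5, KRT18 and CDH1, lay above the median gene level of 8.69. Of these 7, KRT19 rose by 1.00 (limma adjusted p = 0.016) and CDH3 by 0.49 (limma adjusted p = 0.0073), and 5 did not pass. The 7 differences ran from -1.43 to 1.00, 6 positive and 1 negative, with a median of 0.42. The negative one, the largest in size, did not pass. KRT6A, KRT17 and TP63, listed with them, had no probe set annotated to their symbol alone and were not measured. The calls of KRT19 and CDH3 were lost without any 1 of the siTIG1 arrays and without siTIG1 replicate 3, respectively. The part of these changes in the results below was not tested. ESR1, PGR and ERBB2, taken as low in this line, averaged 8.77, 6.91 and 9.31 on the control arrays. Over all arrays 2 of these 3 also lay above the median gene level, so lying above it does not set the line's markers apart from them. Among markers of other cells, none of 12 leukocyte and none of 9 endothelial genes passed by limma (1 and 0 at an unadjusted p under 0.05), and of 10 fibroblast genes DCN, which encodes decorin, rose and 9 did not pass. Without siControl replicate 3, 2 leukocyte, 3 fibroblast and 0 endothelial genes were called as higher, where 27.1% of all genes were called. The leukocyte gene CD14, at 0.36 with all arrays (limma adjusted p = 0.62), was then at 0.80 (limma adjusted p = 1.6e-05). The fibroblast genes summed to 12.06 to 12.22 on the control arrays and 12.64 to 12.81 on the siTIG1 arrays (log2 of summed signal). DCN differed by 2.17, the most of the 10, whereas the median of the 10 was 0.03, with 6 positive and 4 negative. The part of this shift of the summed signal in the results below was not tested.

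**Figure D1:**
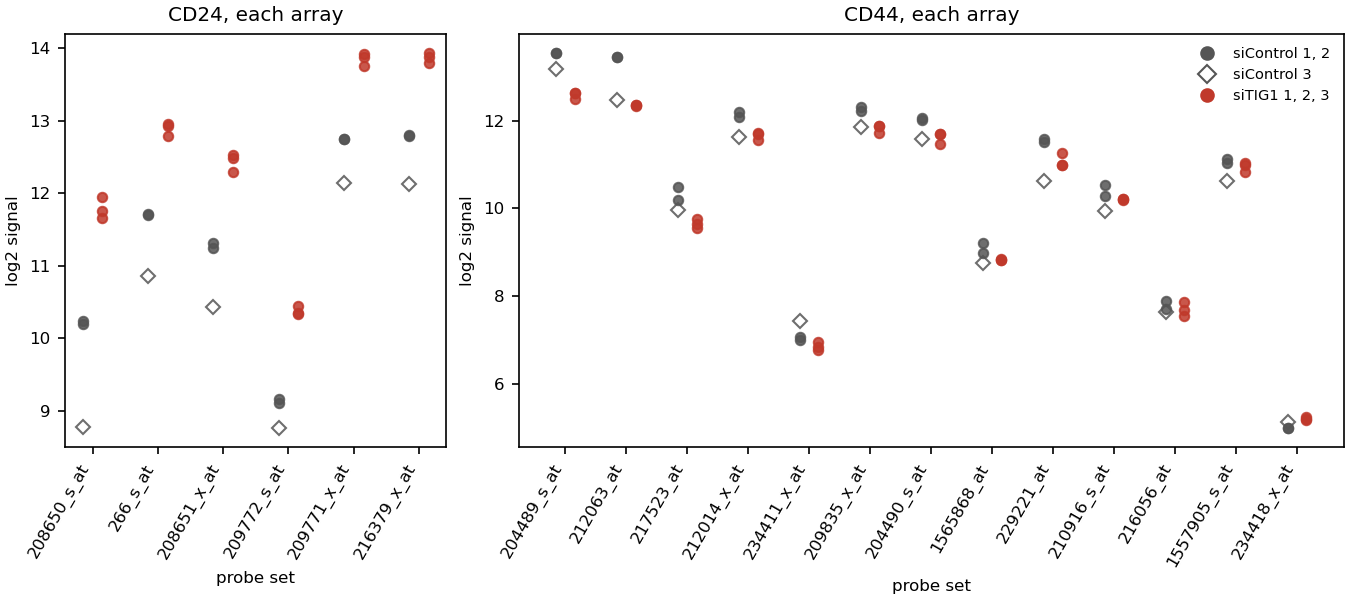
Log2 signal (vertical axis) of each CD24 probe set (left) and CD44 probe set (right) on every array, with 1 point per array, grey for siControl, an open diamond for siControl replicate 3 and red for siTIG1. All siTIG1 points lie above all siControl points on the 6 CD24 probe sets, whereas for CD44 the siControl replicate 3 array often lies beside the siTIG1 arrays.

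CD24 was represented by probe set 266_s_at, the one with the highest mean signal among those whose name does not end in x_at (such probe sets can bind several transcripts). Its log2 signal was 11.72, 11.70 and 10.86 on the control arrays and 12.79, 12.93 and 12.96 on the siTIG1 arrays. Every siTIG1 array lay above every control array, and siControl replicate 3 was the lowest of all. The means were 11.43 ± 0.49 and 12.89 ± 0.09 (SD, n = 3 each). CD24 thus rose by 1.47 ± 0.23 on the log2 scale (SE, 95% interval 0.92 to 2.01, limma adjusted p = 0.020), or 2.76-fold. The exact 2-sided permutation test gave p = 0.1, the smallest that 3 against 3 arrays allow. The rise was smaller without siControl replicate 3, at 1.18 on the log2 scale (2.27-fold), with a limma adjusted p of 1.3e-05. The call was lost without siControl replicate 2 (limma adjusted p = 0.051) and without any 1 of the siTIG1 arrays (0.083 to 0.11), the difference then being 1.43 to 1.60.

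The largest difference among the CD24 probe sets was that of 208650_s_at. It read 10.20, 10.24 and 8.77 on the control arrays and 11.66, 11.76 and 11.95 on the siTIG1 arrays, so that siControl replicate 3 lay 1.45 below the mean of the other controls. Its difference was 2.05 ± 0.39 (SE, limma adjusted p = 0.036), or 4.15-fold, and 1.57 without that array (2.97-fold). The most even readings came from 209772_s_at, at 9.12, 9.17 and 8.77 on the control arrays and 10.33, 10.45 and 10.35 on the siTIG1 arrays. Its difference of 1.36 ± 0.11 (SE, limma adjusted p = 0.0037), or 2.56-fold, was the only one of the 33 that passed in each of the 6 fits that omit a single array, the highest limma adjusted p being 0.038.

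The other CD24 probe sets, all named x_at, gave rises of similar size. Probe set 208651_x_at differed by 1.44 ± 0.23 (SE, limma adjusted p = 0.022), 209771_x_at by 1.31 ± 0.17 (SE, limma adjusted p = 0.012) and 216379_x_at by 1.30 ± 0.18 (SE, limma adjusted p = 0.015). Each of these calls was lost when any 1 siTIG1 array was omitted (limma adjusted p of 0.054 to 0.12), as was that of 208650_s_at (0.13 to 0.16), which was also lost without siControl replicate 1 or 2, and 208651_x_at without siControl replicate 1 (0.052). On all 6 CD24 probe sets siControl replicate 3 was the lowest control. It lay 0.38 to 1.45 below the mean of the other controls on the log2 scale, and leaving it out reduced every rise to between 1.07 and 1.57. The limma adjusted p was then at most 2.7e-05, where 18.9% of all probe sets passed. CD24 has processed pseudogenes of closely similar sequence, with which these probe sets can share signal, so the source of the signal among those copies is uncertain.

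The rise did not differ detectably between CD24 probe sets with all arrays. A test of each probe set's difference against the others of its gene (diffSplice of limma, run over 10523 genes with at least 2 probe sets) gave an adjusted p of 0.74 for CD24. Without siControl replicate 3 the same test gave an adjusted p of 0.0052, with 208650_s_at rising by 0.42 more than the others (diffSplice adjusted p = 0.00045). That test called 9.33% of genes with all arrays and 28.2% without siControl replicate 3. It treats probe sets of a gene as independent, although they share an array.

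CD44 was represented by probe set 204489_s_at. It read 13.55, 13.54 and 13.17 on the control arrays and 12.49, 12.63 and 12.64 on the siTIG1 arrays. Every siTIG1 array lay below every control array, and siControl replicate 3 was the lowest control. The means were 13.42 ± 0.21 and 12.58 ± 0.09 (SD, n = 3 each). CD44 on this probe set thus fell by 0.84 ± 0.11 on the log2 scale (SE, 95% interval -1.11 to -0.57, limma adjusted p = 0.014), or 1.79-fold, with an exact 2-sided permutation p of 0.1. With siControl replicate 3 omitted it was -0.96 (1.95-fold lower, limma adjusted p = 3e-05). The call was lost in each of the 5 fits that omitted a different array (limma adjusted p of 0.0505 to 0.081), and the mean of all 13 CD44 probe sets did not pass either, at -0.28 (limma adjusted p = 0.23).

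A pair of further CD44 probe sets had differences of more than 0.5 on the log2 scale without passing. Probe set 212063_at read 13.46, 13.45 and 12.48 on the control arrays and 12.35, 12.35 and 12.34 on the siTIG1 arrays. The siTIG1 arrays were almost identical, and siControl replicate 3 lay close above them, 0.98 below the mean of the other controls. Its difference was -0.78 ± 0.26 (SE, 95% interval -1.40 to -0.16, limma adjusted p = 0.16), and without that array -1.11 (2.16-fold lower, limma adjusted p = 6e-06). Probe set 217523_at read 10.20, 10.48 and 9.97 against 9.75, 9.63 and 9.55, a difference of -0.57 ± 0.13 (SE, limma adjusted p = 0.067) between groups that did not overlap. It was -0.69 and passed when siControl replicate 3 was omitted (limma adjusted p = 0.00095).

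The remaining CD44 probe sets moved less. Those of 204490_s_at, 209835_x_at and 212014_x_at differed by -0.27, -0.29 and -0.32 (limma adjusted p of 0.28 to 0.36), and 234411_x_at by -0.32 (limma adjusted p = 0.23). Those of 1565868_at, 229221_at, 210916_s_at and 216056_at lay between -0.16 and -0.04. Probe set 1557905_s_at was at 0.02, with a 95% interval of -0.31 to 0.35, and 234418_x_at, with a mean of 5.04 on the control arrays, at 0.16 (limma adjusted p = 0.20). On 11 of the 13 CD44 probe sets siControl replicate 3 was the lowest control, and without it 8 were called as lower and 1, 234418_x_at, as higher, where 18.9% of all probe sets were called in either direction. The signal of 234418_x_at lay at the 4.89th percentile of all probe sets and is not shown to be above background.

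**Figure D2:**
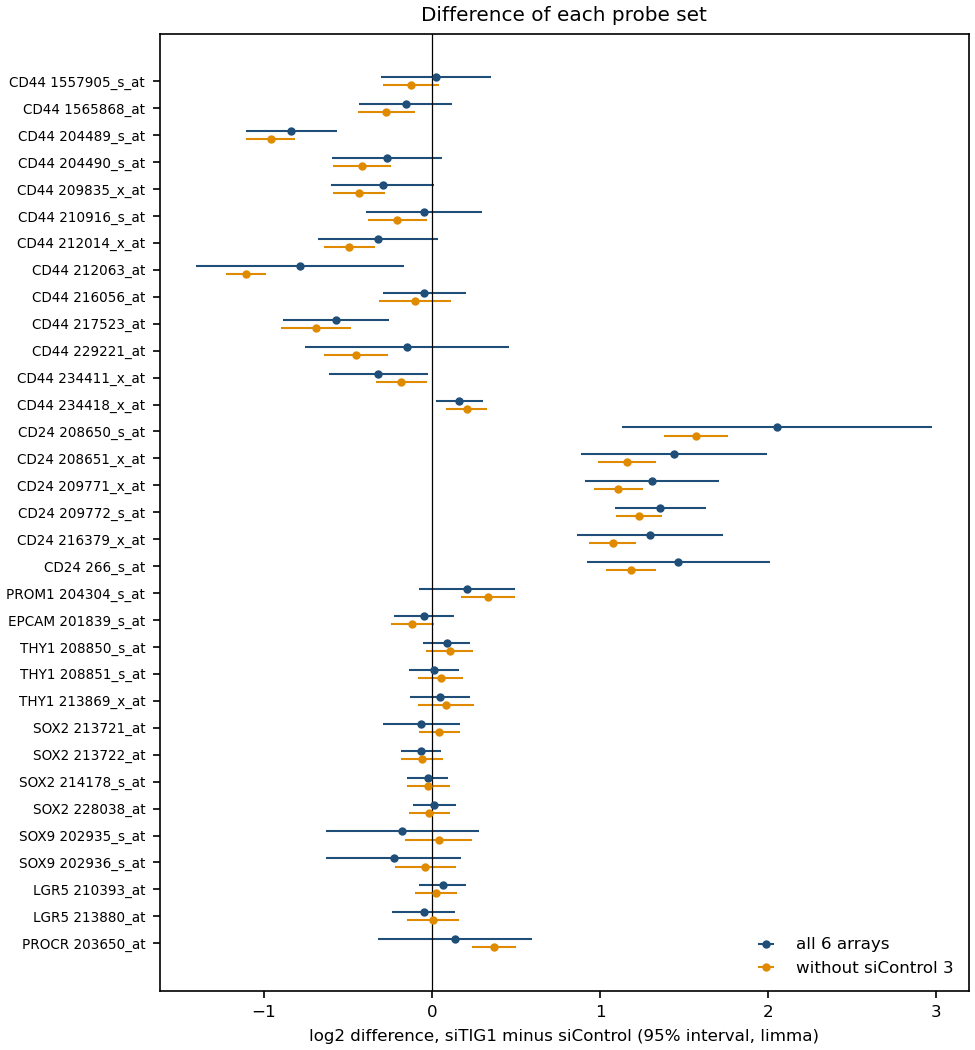
Log2 difference, siTIG1 minus siControl (horizontal axis), of each of the 33 probe sets with its 95% interval from limma, in blue with all 6 arrays and in orange without siControl replicate 3. The CD24 intervals lie entirely above 0 in both fits. The CD44 probe sets spread from -0.84 to 0.16 with all arrays and from -1.11 to 0.21 without siControl replicate 3. With all arrays the intervals of the other genes include 0. Without siControl replicate 3 those of PROM1 (at 0.33) and PROCR (at 0.37) lie above 0, and the rest include 0.

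The differences of the CD44 probe sets ran from -0.84 to 0.16 with all arrays. Such a spread can bear on isoforms because different probe sets measure different stretches of the transcript. No map of probe sets to CD44 exons was used here, so no isoform is named. By diffSplice the gene-level F test gave an adjusted p of 0.060 with all arrays, and 2.8e-10 without siControl replicate 3. With probe sets below the 25th percentile of signal left out, the diffSplice adjusted p was 0.17, and with a block for replicate number it was 0.19. Signals of the 13 CD44 probe sets ran from the 4.89th to the 97.8th percentile, and the part of signal level in these differences was not tested. By probe set, 204489_s_at fell by 0.61 more than the others of the gene (diffSplice adjusted p = 0.045), a call made for 5.32% of probe sets, and 212063_at was at -0.55 (diffSplice adjusted p = 0.078). This test called 0 CD44 probe sets in each of the 5 fits that omit an array other than siControl replicate 3, and 6 of them without that array, where it called 19.1% of all probe sets. With the x_at probe sets left out the call of 204489_s_at was lost as well (diffSplice adjusted p = 0.094). Read within each array, the difference of 204489_s_at from another CD44 probe set did not overlap between groups for 9 of the other 12 (exact 2-sided permutation p = 0.1 each, the smallest possible). All 12 comparisons share 204489_s_at, so the 9 restate its fall and are not separate evidence. Against 212063_at the groups overlapped, with a difference of 0.05 (exact permutation p = 1), as they did against 217523_at and 234411_x_at.

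The array-wide shifts of the whole gene can be removed by taking each probe set relative to the mean of its gene's probe sets on the same array. On this scale 204489_s_at read 3.15, 3.05 and 3.11 on the control arrays and 2.51, 2.56 and 2.57 on the siTIG1 arrays. The spread within each group was small, and siControl replicate 3 lay between the other controls. The difference was -0.56 ± 0.04 (SE, limma adjusted p = 0.0042), and it passed in all 6 fits that omit a single array, with a highest limma adjusted p of 0.045. Relative to the gene's mean 1557905_s_at was higher by 0.30 ± 0.05 (SE, limma adjusted p = 0.019). Values on this scale sum to 0 on each array, so falls of some probe sets place others higher, and the signal of 1557905_s_at itself differed by 0.02 (limma adjusted p = 0.95). These were the only CD44 probe sets called in this fit, which called 5.85% of 31839 probe sets. Groups did not overlap on this scale for 8 of the 13 CD44 probe sets, 5 higher and 3 lower, and for 29.2% of all probe sets. Without siControl replicate 3, 2 CD44 probe sets were called as lower (204489_s_at and 212063_at) and 4 as higher, where 17.9% of probe sets were called. No CD24 probe set passed in the fit with all arrays (limma adjusted p of at least 0.078), 208650_s_at being at 0.57 (limma adjusted p = 0.11).

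**Figure D3:**
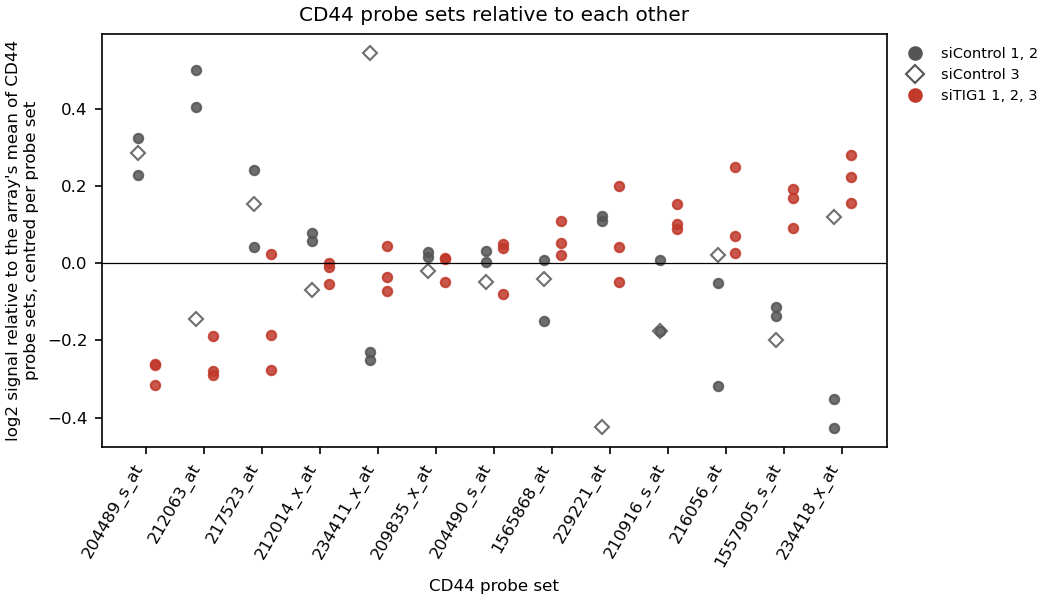
Each CD44 probe set relative to the mean of all CD44 probe sets on the same array, on the log2 scale and centred on its own mean over the 6 arrays (vertical axis), with 1 point per array. On 204489_s_at the siControl and siTIG1 points form separate clusters, and siControl replicate 3 lies with the other controls. On 212063_at, 229221_at, 234411_x_at and 234418_x_at siControl replicate 3 lies apart from the other controls.

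The gap between the CD24 and CD44 representatives was also followed on each array. The log2 signal of 266_s_at minus that of 204489_s_at was -1.83, -1.84 and -2.31 on the control arrays and 0.31, 0.30 and 0.32 on the siTIG1 arrays. The siTIG1 arrays lay within 0.02 of each other. The gap changed by 2.30, from -2.0 ± 0.27 to 0.31 ± 0.01 (SD, n = 3 each, exact 2-sided permutation p = 0.1), and by 2.14 without siControl replicate 3. The sign of the gap has no meaning in itself, because signals of different probe sets are not on a common scale, and only its change between arrays is a measurement. This gap was chosen after the values of both genes were seen.

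Among the other surface markers, EPCAM, the epithelial cell adhesion molecule, read 14.46, 14.45 and 14.25 on the control arrays and 14.29, 14.38 and 14.35 on the siTIG1 arrays. The groups overlapped, and the signal was at the 99.6th percentile of all probe sets. The difference was -0.05 ± 0.07 (SE, 95% interval -0.22 to 0.13, limma adjusted p = 0.79). PROCR, the endothelial receptor for protein C, which also marks mammary stem cells in mice, read 10.20, 10.21 and 10.91 against 10.64, 10.53 and 10.56. The siTIG1 arrays lay between siControl replicate 3 and the other controls, and the difference was 0.14 ± 0.19 (SE, 95% interval -0.32 to 0.59, limma adjusted p = 0.76). With that control array omitted PROCR was called as higher, at 0.37 (95% interval 0.24 to 0.50, limma adjusted p = 0.0022).

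PROM1, the membrane protein CD133, had a low signal, at the 6.22nd percentile of all probe sets. It read 5.06, 4.97 and 5.39 on the control arrays and 5.38, 5.24 and 5.44 on the siTIG1 arrays, in groups that overlapped through siControl replicate 3. The difference was 0.21 ± 0.12 (SE, 95% interval -0.08 to 0.49, limma adjusted p = 0.41), and without that array 0.33 (limma adjusted p = 0.011). Values this low are not shown to be above background. THY1, the surface protein CD90 of mesenchymal and some progenitor cells, differed by 0.09, 0.01 and 0.05 on its 3 probe sets, with 95% intervals that together ran from -0.14 to 0.23.

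LGR5, a receptor for R-spondins that strengthens Wnt signalling in stem cells of the intestine and other epithelia, differed by 0.06 on 210393_at and -0.05 on 213880_at (limma adjusted p of 0.63 and 0.79). The latter probe set lay at the 2.98th percentile. Of the transcription factors, SOX2, a core factor of pluripotent cells, differed by -0.07 to 0.01 on its 4 probe sets (limma adjusted p of at least 0.55), with levels of 5.09 to 7.76 on the control arrays. SOX9, a factor of progenitor cells in cartilage, gut and mammary gland, had a higher signal. On 202936_s_at it read 11.79, 11.78 and 12.35 on the control arrays and 11.59, 11.79 and 11.86 on the siTIG1 arrays. The control array of replicate 3 was the highest, and the difference of -0.23 ± 0.17 (SE, 95% interval -0.63 to 0.17, limma adjusted p = 0.53) became -0.04 without it. The second SOX9 probe set, 202935_s_at, gave -0.18 with all arrays and 0.04 without that array.

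**Figure D4:**
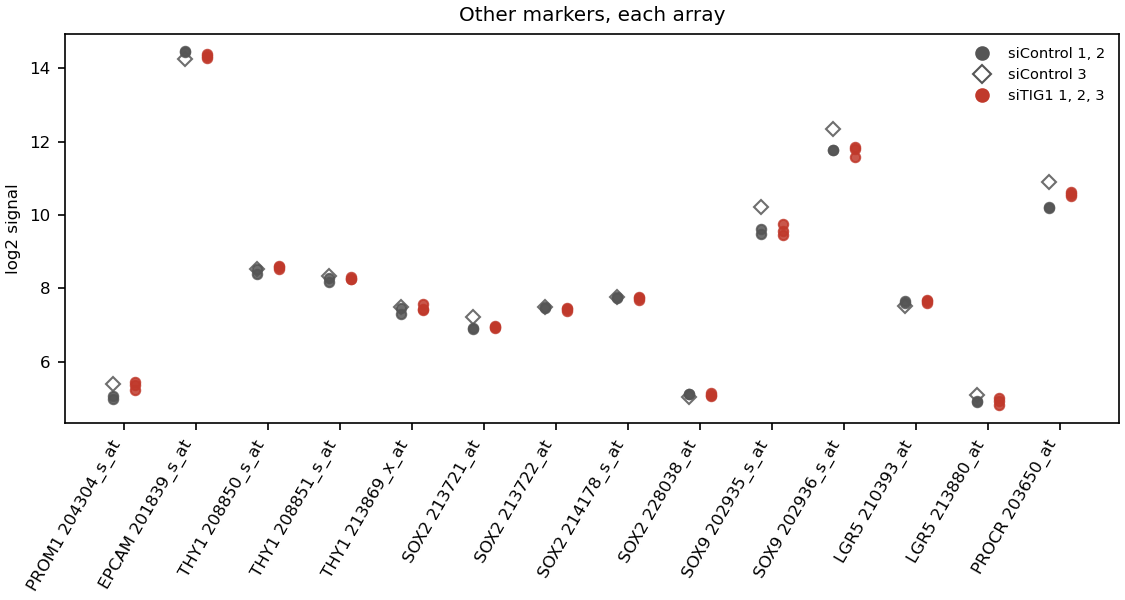
Log2 signal (vertical axis) of every probe set of PROM1, EPCAM, THY1, SOX2, SOX9, LGR5 and PROCR on each array, with 1 point per array. The 2 groups lie close together on each, and siControl replicate 3 stands above the other points most clearly for SOX9, PROCR and SOX2 213721_at.

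Genes that work with these markers were followed at 1 probe set a gene, chosen as above, over 19775 genes, of which 7.29% passed (3.16% as higher and 4.14% as lower) and whose median difference was 0.02. Without siControl replicate 3, 27.1% of genes passed, and the counts given below for that setting stand against this share. Of 23 measured genes of hyaluronan turnover and CD44 binding 3 rose and 20 did not pass, with a median of 0.04. The differences ran from -0.22 to 1.80. At probe set level 1 of the 5 probe sets of VCAN and 1 of the 3 of ADAM10 passed, although both genes are among the 20. ANK3, an ankyrin that ties membrane proteins to the cytoskeleton, read 9.20, 9.33 and 9.12 on the control arrays and 10.74, 10.75 and 10.72 on the siTIG1 arrays. The groups were far apart, and ANK3 rose by 1.52 ± 0.07 (SE, 2.88-fold, limma adjusted p = 0.0010), a call made in all 6 fits that omit a single array, and all 5 of its probe sets had positive differences. The hyaluronan synthase HAS2 rose by 0.56 ± 0.12 (SE, limma adjusted p = 0.049), close to the threshold, and the hyaluronidase HYAL3 by 0.36 ± 0.06 (SE, limma adjusted p = 0.019). Tested over all probe sets, neither of the 2 probe sets of HAS2 passed. The calls of HAS2 and HYAL3 were made without siControl replicate 3 but in none of the 5 fits that omit a different array (limma adjusted p of 0.057 to 0.14). Without siControl replicate 3, 8 genes of the list were called as higher and 3 as lower.

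None of 19 measured factors known to act on CD44 or similar splicing passed by limma, and 2 did at an unadjusted p under 0.05. Their median difference was 0.02. The one with the largest difference, HNRNPA2B1, was at 0.35 ± 0.20 (SE, limma adjusted p = 0.38), and at probe set level 2 of its 4 probe sets passed in the opposite direction. Without siControl replicate 3, the lowest array for HNRNPA2B1, it was at 0.11. HNRNPM also had 1 of its 7 probe sets pass in the direction opposite to its representative. ESRP1, which favours the epithelial variant forms of CD44, was at -0.29 (limma adjusted p = 0.52), and at -0.02 without siControl replicate 3, its highest array. ESRP1 is named after its value was seen. Of 12 measured partners of EPCAM and PROM1, PSEN2, a subunit of the gamma-secretase that cuts EPCAM, fell by 0.47 ± 0.09 (SE, limma adjusted p = 0.034), and 11 did not pass. The PSEN2 call was made in 1 of the 6 fits that omit an array, the one without siControl replicate 3, and 1 of its 3 probe sets had a positive difference.

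Among 25 further markers of breast tumour stem cells 4 fell, 1 rose and 20 did not pass, with a median of -0.03. The differences ran from -1.31 to 1.60. At probe set level 3 of the 4 probe sets of NT5E and 1 of the 4 of DCLK1 passed, although both genes are among the 20. Each of those had the sign of its gene's representative. ITGA6, the integrin chain CD49f, read 12.50, 12.55 and 12.64 on the control arrays and 11.41, 11.57 and 11.55 on the siTIG1 arrays. The groups were separate, with siControl replicate 3 the highest control, and ITGA6 fell by 1.05 ± 0.07 on the log2 scale (SE, 2.08-fold lower, limma adjusted p = 0.0020). PODXL, a sialomucin of the surface, fell by 1.31 ± 0.14 (SE, 2.48-fold lower, limma adjusted p = 0.0059), the BMP receptor BMPR1B by 0.78 ± 0.09 (SE, limma adjusted p = 0.0091) and the aldehyde dehydrogenase ALDH1A3 by 0.66 ± 0.09 (SE, limma adjusted p = 0.013). ALDH1A1, the other aldehyde dehydrogenase of the list, rose by 0.51 ± 0.11 (SE, limma adjusted p = 0.045) from a mean of 6.56, and it is named to complete the count. Its call was lost in the 5 fits that omit an array other than siControl replicate 3. Tested over all probe sets, the 1 probe set of ALDH1A1 did not pass. ITGA6 and PODXL were called in all 6 fits that omit a single array (highest limma adjusted p 0.026 and 0.0498). The call of BMPR1B was lost without siTIG1 replicate 2 or 3 (limma adjusted p of 0.066 and 0.063) and that of ALDH1A3 without siTIG1 replicate 2 (0.074). With siControl replicate 3 omitted, 8 of the 25 were called as lower and 6 as higher.

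Relatives of the transcription and chromatin factors were followed in the same way, and their counts stand against the 7.29% of all genes that passed. Of 17 other SOX genes SOX4 rose by 0.95 ± 0.11 (SE, 1.93-fold, limma adjusted p = 0.0082), and all 6 of its probe sets had positive differences, while 16 genes did not pass. Its call was lost without siTIG1 replicate 2 or 3 (limma adjusted p of 0.060 and 0.0504). Of 14 measured pluripotency factors TFCP2L1 rose by 0.39 ± 0.07 (SE, limma adjusted p = 0.024) and 13 did not pass. That call was lost without siControl replicate 1 or any 1 of the siTIG1 arrays (limma adjusted p of 0.082 to 0.12). At probe set level 1 of the 7 probe sets of TBX3, which is among the 13, passed. Of 20 measured genes of a Polycomb list without BMI1, PCGF5 fell by 1.00 ± 0.08 on the log2 scale (SE, limma adjusted p = 0.0027) and PHC2 by 0.81 ± 0.10 (SE, limma adjusted p = 0.0089). PCGF5 and PHC2 encode subunits of Polycomb repressive complex 1, in which PCGF5 takes the position that BMI1 holds in other forms of the complex. The list also holds CDKN2A, which does not encode a Polycomb subunit. The other 18 did not pass, and the median of the list was -0.18. PCGF5 was called in all 6 fits that omit a single array (highest limma adjusted p 0.031), whereas PHC2 was not called without siTIG1 replicate 2 or 3 (0.064 and 0.056). Of the 20 genes of the Polycomb list, 11 were called as lower and 1 as higher when siControl replicate 3 was omitted, where 27.1% of all genes were called.

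Of 17 measured relatives and Wnt-linked partners of LGR5, TNFRSF19, a receptor of the TNF family found in intestinal and hair follicle stem cells, rose and 16 did not pass. It read 7.21, 7.27 and 6.04 on the control arrays and 8.45, 8.84 and 8.73 on the siTIG1 arrays, with siControl replicate 3 far below the rest. The rise of 1.83 ± 0.34 (SE, limma adjusted p = 0.029) shrank to 1.43 without that array, and the call was lost in the other 5 fits that omit an array (limma adjusted p of 0.058 to 0.14). Of 11 measured genes of the protein C pathway PROS1 rose by 0.33 ± 0.06 (SE, limma adjusted p = 0.025), and 10 did not pass. PROS1 was called in 1 of the 6 fits that omit an array, the one without siControl replicate 3. Neither of the measured CD24 ligand genes, SIGLEC10 and SELP, passed by limma (0 also at an unadjusted p under 0.05), with SELP at 0.07.

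**Figure D5:**
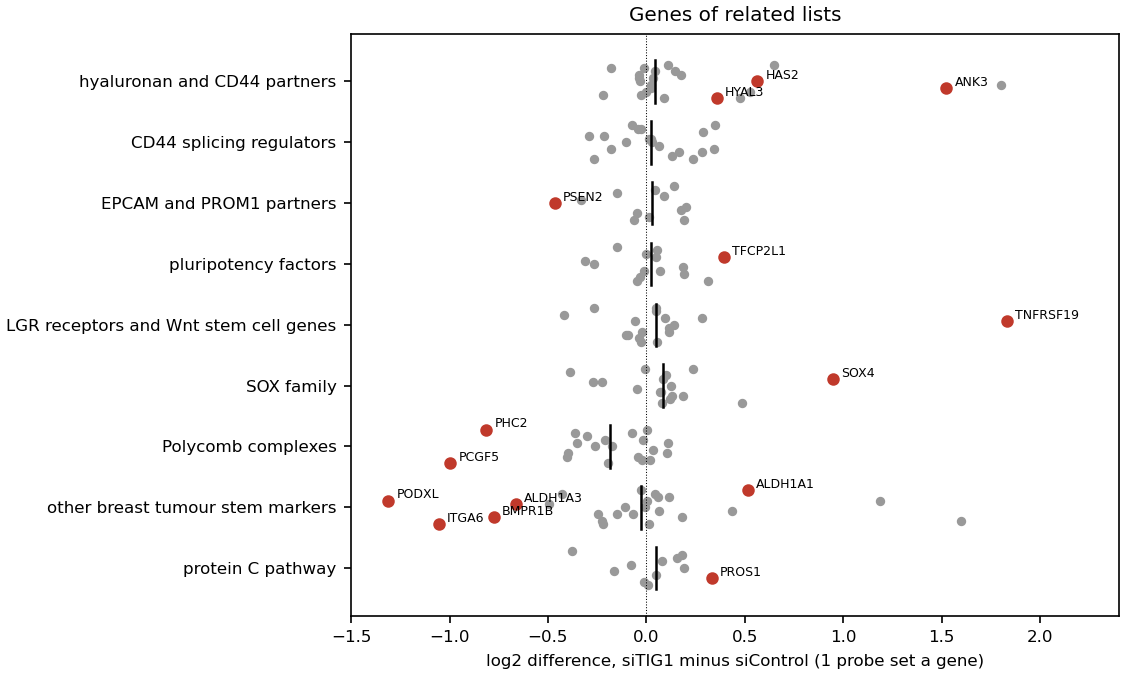
Log2 difference, siTIG1 minus siControl (horizontal axis), of each gene of the related lists, with 1 point per gene, red and named where the limma adjusted p was under 0.05, and a black bar at each list's median. Most genes lie near 0, and the Polycomb list has the lowest median, -0.18.

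The genes whose profile over the 6 arrays was most like that of CD44 were MTCL1, TUBGCP2 and ZNRD2-DT, with Pearson correlations of 0.999, 0.998 and 0.998 among 9887 genes compared. For CD24 they were SMIM10L1, PRKAR2B and BST2, with a correlation of 0.999 each. These correlations are descriptions over 6 arrays that fall into 2 groups, and all of these genes share the same arrays.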

How the data were processed

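Total RNA of the 6 SUM149 samples was hybridised as biotin-labelled cRNA to Affymetrix HG-U133 Plus arrays, per the labels' protocols. The authors deposited 1 log2 value per probe set and array. The log base was inferred from the range of 4.28 to 15.59. The submitters' processing notes name both MAS5 and RMA without saying which gave these values. Array medians of 7.87 to 7.90 show that arrays had been normalized against each other. The values were used as deposited, and a shift common to most genes would be hidden. No detection call was used. Symbols came from the platform annotation, updated by gene number to RefSeq of GRCh38.p14. After 62 control probe sets were left out, 54613 were fitted with limma 3.58.1 in R 4.3.3 (lmFit, eBayes, 2-sided, no block), with Benjamini-Hochberg adjustment over all and a threshold of 0.05. Related lists were fitted at 1 probe set a gene, the one with the highest mean, avoiding x_at. Named genes were all member probe sets, RARRES1, up to 4 called genes by p of each list (or the largest difference where none passed) and the 3 most correlated genes for CD44 and CD24, among genes at least as variable as the median gene. The fit relative to the gene's mean, and alternatives for named list genes, were added after the data were seen. The members and lists were chosen with earlier results of these data known. The number of arrays limits the precision. The fits were tested on simulated data.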

Additional observations from a re-analysis of the deposited data

How the results depend on the processing

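Quantile normalization, median centring, leaving out dim probe sets, a trended robust variance and a fit on probe sets with 1 symbol each gave 6 member probe sets higher and 1 lower, as in the fit reported above, and kept the calls of the CD44 and CD24 representatives. Signs turned on probe sets with differences near 0: under quantile normalization 208851_s_at (THY1) was at -0.00011, 210916_s_at (CD44) at 0.0033 and 228038_at (SOX2) at -0.0045, and under median centring 208851_s_at was at -0.0055 and 228038_at at -0.0023. With the replicate block 1 member probe set was higher and 0 lower, and the limma adjusted p was 0.065 for CD44 (-0.84) and 0.068 for CD24 (1.47). The labels name no pairing of the samples. Same-numbered arrays had deviations from their group means correlated at -0.043, -0.0099 and -0.0054, and no array correlated best with its own number. Correlations between differently numbered arrays were small as well, at -0.028 to 0.060, so this check cannot exclude a pairing. The mean of all CD44 probe sets was at -0.28, past no threshold. With 1 array left out, 1 to 9 member probe sets were higher and 0 to 8 lower, the highest counts being without siControl replicate 3. The CD44 representative ranged from -0.96 to -0.77 and passed in 1 of 6 such fits, and the CD24 representative from 1.18 to 1.61 and passed in 2 of 6. The diffSplice F ranged from 1.64 to 17.5 for CD44 and from 0.557 to 6.01 for CD24. Signs also turned in these fits for probe sets of CD44 (1557905_s_at, -0.13 to 0.12; 210916_s_at, -0.21 to 0.097; 216056_at, -0.13 to 0.031; 229221_at, -0.45 to 0.023), THY1 (208851_s_at, -0.038 to 0.051; 213869_x_at, -0.011 to 0.084), SOX2 (213721_at, -0.13 to 0.043; 228038_at, -0.016 to 0.031), SOX9 (202935_s_at, -0.32 to 0.039) and LGR5 (213880_at, -0.094 to 0.0078), and for the genes ESR1 (-0.044 to 0.31) and TIE1 (-0.17 to 0.017). None of these probe sets or genes was called with all arrays. The cause of these changes was not tested.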
